A study of Mus musculus with 18 samples.

Results

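The 35 genes described here encode the machinery of macroautophagy and of the lysosome. They were taken from a list of mouse gene symbols, which were mapped to the Ensembl identifiers of the files. Of the 46725 genes in the files, 33 were members of this list, and all 33 passed the filter on low counts. By role, these were 4 genes of the initiation complex, 3 of the phosphatidylinositol 3-kinase complex, 3 that move lipid or bind its product, 6 of the conjugation system, 5 of the ATG8 family, 6 cargo receptors, 2 transcription factors and 4 lysosomal proteins. Atg9a and Ctsd, the other 2 genes of the list, were not analysed here.

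In macroautophagy, a double membrane grows around cytoplasm, closes into an autophagosome and fuses with a lysosome, whose acid hydrolases break down the cargo. The ULK complex starts the process, a lipid kinase built on Becn1 and Pik3c3 marks the site, and enzymes resembling the ubiquitin system couple ATG8 proteins, the LC3 and GABARAP families, to the growing membrane. Receptors such as p62, encoded by Sqstm1, hold the cargo and bind the ATG8 proteins, and TFEB and TFE3 switch on genes of both autophagosomes and lysosomes. In skeletal muscle the pathway removes damaged mitochondria and protein aggregates, it responds to fasting, and both its loss and its excess cause fibre atrophy.

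RNA was sequenced from the gastrocnemius and quadriceps of 9 mice of the FVB strain aged 20 weeks. The groups were 3 WT mice, 3 HSA-LR mice and 3 HSA-LR mice given Pip6a-PMO, so there were 18 libraries. HSA-LR mice, a model of myotonic dystrophy, carry a human skeletal actin (HSA) transgene with an expanded CTG repeat in its 3′ UTR, so the CUG repeat RNA is made in skeletal muscle and the model does not cover tissues without this transgene's expression. Pip6a-PMO is an antisense morpholino of CAG repeats joined to the cell-penetrating peptide Pip6a and is directed at that RNA. The labels give an intravenous injection of 160 µL per mouse, of Pip6a-PMO or saline, and call WT mice and HSA-LR mice without Pip6a-PMO untreated. The dose and the number of injections of the sequenced mice are not given in the sources used here.

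The deposited values were counts of read pairs on exon bins, stretches of exon between annotated exon ends, and a pair on several bins counted in each. Totals ran from 98916844 to 143135976 counts per library, and the smallest count of a member gene in any library was 800 (Atg14). Levels are given as CPM, the counts of the gene's bins relative to the library total, scaled by TMM factors. All 10 skeletal muscle markers were measured in every group and none was at 0. In 1 library, treated gastrocnemius mouse 3, coverage leaned to the 3′ ends of transcripts, with a log2 ratio of 5′ to 3′ coverage of -0.84 against -0.48 to -0.25 in the other 17 libraries. HSA-LR gastrocnemius had ratios of -0.339 to -0.303, above WT (-0.441 to -0.367) and treated gastrocnemius (-0.845 to -0.344). Group and coverage thus went together in that muscle, and the quadriceps groups overlapped. The part of this in the shares of 3′ end bins was not tested beyond a fit with the ratio as covariate. WT mouse 2, labelled female, had Y-linked RNA at 153 and 188 CPM in its 2 muscles. WT mouse 3, labelled male, had 1.14 and 1.43 CPM, and these values do not match those 2 labels. HSA-LR and treated libraries held 134 to 188 CPM, and of all mice only WT mouse 3 held almost none. Sex by RNA was thus unbalanced between WT mice and both other groups, and Fundc1, Lamp2 and Tfe3 are X-linked.

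Most autophagy and lysosome genes were not called in any comparison, and those that were changed by small amounts and in both directions. Between HSA-LR and WT mice, 10 of the 33 (30.3%) passed the test in at least 1 muscle, beside 25.0% of the 15935 genes tested. Over all 6 group comparisons 11 members (33.3%) passed, beside 30.3% of all genes, a share near that background. The LC3 genes Map1lc3a and Map1lc3b, the lipid transfer gene Atg2a and the mitophagy receptor Fundc1 fell in HSA-LR mice in at least 1 muscle. So did the lysosomal genes Ctsb and Lamp1 and the lipid kinase gene Becn1. The receptor Nbr1 rose in both muscles, and Tfeb and Atg12 rose in the quadriceps. A gene was called where edgeR's test gave a P under 0.1 after adjustment by the Benjamini-Hochberg method, and log2 FC is given ± SE. In the gastrocnemius, 7 members passed between HSA-LR and WT mice (1 up, 6 down), where 15.5% of all 15625 genes tested were called (8.60% higher, 6.94% lower). In the quadriceps, 7 members passed (3 up, 4 down), where 20.3% of 15574 genes were (11.0% higher, 9.31% lower). The median log2 FC of the members was -0.05 and -0.04 in the 2 muscles, beside -0.01 and 0.01 over all genes tested. In these whole-muscle libraries, fewer cells of a type and less RNA per cell cannot be told apart.

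Treated mice were compared with the same HSA-LR mice, so these values share their samples with those against WT mice. In the gastrocnemius, 4 members were called in treated against HSA-LR mice (3 up, 1 down), beside 10.02% of all genes (4.49% higher, 5.53% lower). In the quadriceps, 3 members were called (3 up, 0 down), beside 13.8% of all genes (6.54% higher, 7.22% lower). Map1lc3a was called higher in both muscles. The median log2 FC of the members was 0.08 in the gastrocnemius and 0.04 in the quadriceps, and that of all genes was -0.00 and -0.01. The other 22 members were called in no comparison, with log2 FC between -0.42 and 0.36.

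**Figure D1:**
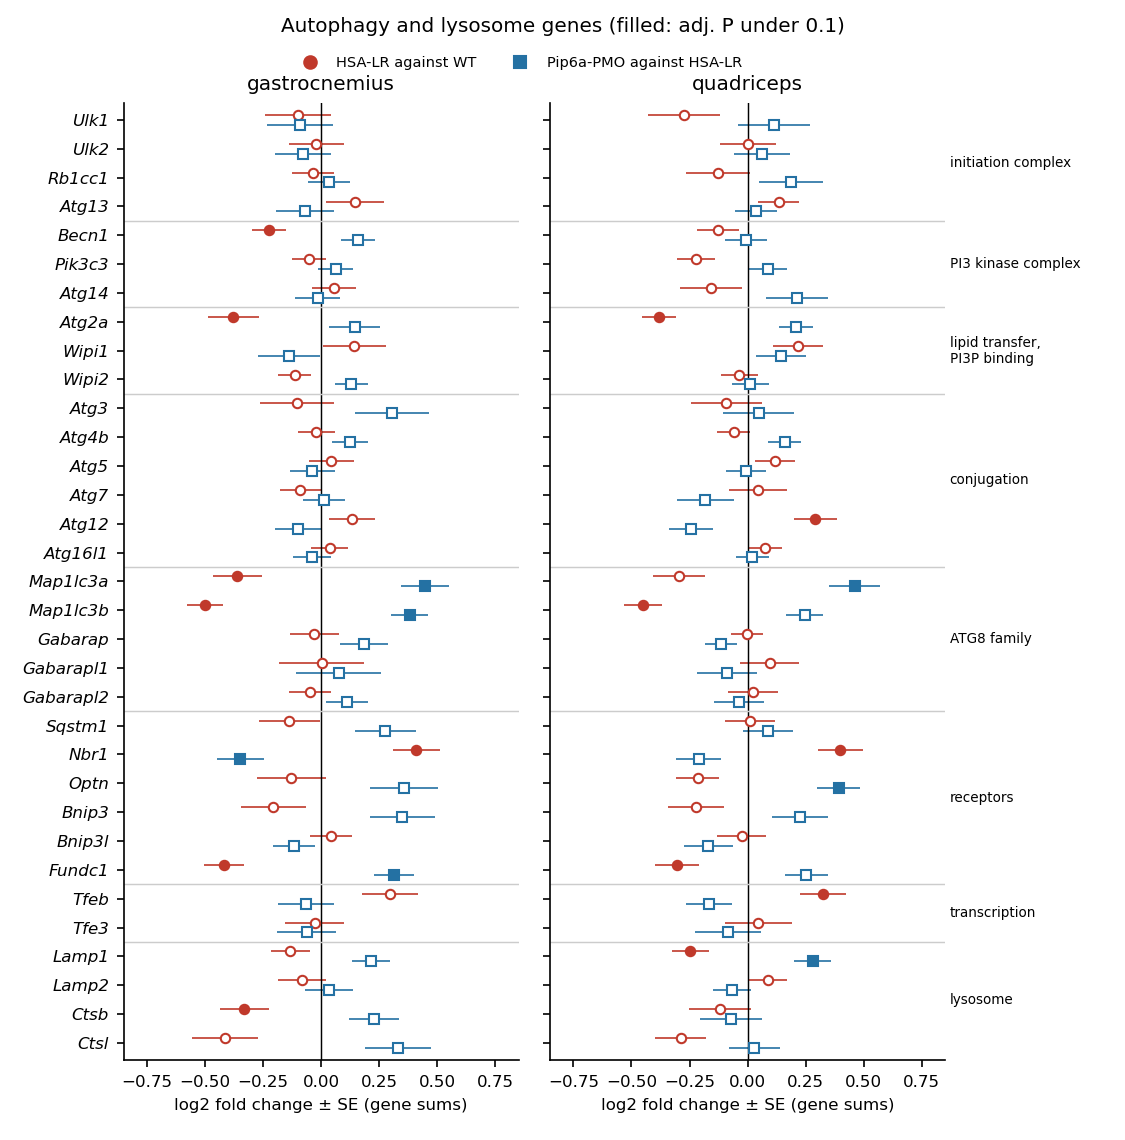
Log2 fold changes (x axis) of the gene sums of the 33 members, with SE bars, in the gastrocnemius and quadriceps, for HSA-LR against WT mice (circles) and Pip6a-PMO treated against HSA-LR mice (squares). Filled symbols passed an adjusted P of 0.1, and the largest decrease called in each muscle is that of Map1lc3b, at -0.50 and -0.45 in HSA-LR mice.

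Single exon bins were tested against the rest of their gene, which shows changes of transcript form that a gene sum can hide. The 33 members held 835 bins, of which 684 passed the filter in the gastrocnemius and 686 in the quadriceps. In HSA-LR against WT mice, 7 member bins were called in the gastrocnemius and 5 in the quadriceps, beside 0.819% and 0.284% of all bins tested. In treated against HSA-LR mice, 4 were called in each muscle, beside 0.309% and 0.168% of all bins. Sqstm1 bin 001 had the smallest P of the member bins in all 4 of these comparisons. This bin was singled out with earlier results of these data known, so its rank and P values are not independent support.

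The initiation complex, the ULK kinases with their scaffold Rb1cc1 (FIP200) and adaptor Atg13, gave no called gene sum. Ulk1, the kinase that relays nutrient signals, stood at 132, 129.5 and 102 CPM in WT mice, 124, 116 and 103 CPM in HSA-LR mice and 95.1, 127 and 97.5 CPM in treated mice in the gastrocnemius. In the quadriceps it stood at 136, 154 and 98.6 CPM in WT mice, 119, 106 and 95.2 CPM in HSA-LR mice and 104, 121 and 121 CPM in treated mice. The groups overlapped in both muscles, and the quadriceps value in HSA-LR against WT mice was log2 FC -0.27 ± 0.155 (SE), adjusted P = 0.2899. Atg13 was measured at 59.8, 58.5 and 50.1 CPM in WT mice, 61.6, 60.1 and 66.1 CPM in HSA-LR mice and 67.4, 61.8 and 48.7 CPM in treated mice in the gastrocnemius and at 55.4, 54.9 and 47.5 CPM in WT mice, 56.3, 55.1 and 61.2 CPM in HSA-LR mice and 55.1, 63.3 and 58.1 CPM in treated mice in the quadriceps. Its HSA-LR mice lay above all WT mice in the gastrocnemius only, at a log2 FC of 0.15 ± 0.124 (adjusted P = 0.5203). Over the 4 genes, log2 FC ran from -0.27 to 0.19 in the 6 comparisons, with a smallest adjusted P of 0.29.

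Within Rb1cc1 (chromosome 1, 6206197 to 6276648, plus strand, GRCm38), bin 060, the far end of the 3′ UTR, took a smaller share of the gene's counts in HSA-LR mice. This bin (6275578 to 6276648, 1071 bp) belongs to transcript Rb1cc1-201 alone. The last 30 bases before the proximal and the distal end are shown because the bin lies between these 2 annotated ends, and Rb1cc1-212 stops at the first. AATAAA, the signal that directs cleavage and polyadenylation, is in capitals, and ATTAAA was searched too. The sequences are from GENCODE M21 transcripts on GRCm38, 5′ to 3′ on the sense strand, at positions 6275548 to 6275577 and 6276619 to 6276648.
Rb1cc1 proximal end: atattaatgAATAAAcgaacaaatgatttc
Rb1cc1 distal end: ctctggctttcctgtaactcactgtagatc
The proximal end held AATAAA and the distal end held neither signal within 30 or 50 bases. Of 48035 annotated protein-coding transcripts, 53.5% held AATAAA or ATTAAA in their last 30 bases and 60.9% in their last 50.

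In the gastrocnemius, the share of bin 060 in Rb1cc1 counts was 0.975, 0.842 and 0.886% in WT mice, 0.338, 0.322 and 0.247% in HSA-LR mice and 0.759, 0.777 and 1.29% in treated mice. The quadriceps shares were 1.01, 0.809 and 0.898% in WT mice, 0.266, 0.338 and 0.357% in HSA-LR mice and 0.583, 0.562 and 1.005% in treated mice. All HSA-LR mice lay below all WT and all treated mice in both muscles, and WT and treated mice overlapped. In both muscles this overlap rested on treated mouse 3, and the other treated mice lay below all WT mice. The gastrocnemius library of that mouse was the one of low 5′ coverage, and its quadriceps library had a ratio of -0.33. Against the rest of the gene, the bin fell in HSA-LR mice, with a relative log2 change of -1.57 (adjusted P = 1.74e-06) and -1.46 (adjusted P = 0.000846) in the 2 muscles. It was higher in treated than in HSA-LR mice, at 1.62 (adjusted P = 1.52e-06) in the gastrocnemius and 1.13 (adjusted P = 0.09095) in the quadriceps. The last of these calls was lost without WT mouse 3 or any of the HSA-LR or treated mice, and under limma (adjusted P 0.00838 to 1 over the alternatives). The 2 bases before it, bin 059 (6275576 to 6275577), were called in the gastrocnemius as well, at -1.91 (adjusted P = 0.0281), on 17, 13 and 20 counts in WT and 5, 7 and 0 in HSA-LR mice. That call was lost without WT mouse 1 or 3 or HSA-LR mouse 1 or 3 (adjusted P 0.0178 to 0.979). A pair on both bins counts in each, so the calls on bins 059 and 060 can rest on the same pairs. Per base, bin 060 held 10.9% and 12.5% of the coverage of bin 058 in WT gastrocnemius and quadriceps, 4.74% and 4.97% in HSA-LR mice, and 11.4% and 11.1% in treated mice.

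Becn1 (Beclin 1), the regulatory subunit of the lipid kinase, was the only called gene of its complex. In the gastrocnemius it stood at 125, 122 and 119 CPM in WT mice, 106, 102 and 107 CPM in HSA-LR mice and 112, 114 and 125 CPM in treated mice. Every HSA-LR mouse lay below every WT and treated mouse, and the gene fell in HSA-LR against WT mice, with log2 FC -0.22 ± 0.0729 (SE), adjusted P = 0.0897. In the quadriceps the levels were 126, 122 and 126 CPM in WT mice, 109, 108 and 125 CPM in HSA-LR mice and 113, 104 and 123 CPM in treated mice, and the groups overlapped. The gastrocnemius call was lost when any WT mouse, any HSA-LR mouse or treated mouse 2 was left out, and when every gene with a count was kept and with upper-quartile scaling (adjusted P 0.0357 to 0.2399 over the alternatives). Pik3c3, the catalytic subunit, and Atg14, which targets the complex to the autophagosome, had log2 FC between -0.22 and 0.21 and a smallest adjusted P of 0.117.

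Atg2a, which moves lipid into the growing membrane, was lower in HSA-LR mice in both muscles. The gastrocnemius held 55.4, 61.8 and 58.3 CPM in WT mice, 48.1, 44.4 and 43.6 CPM in HSA-LR mice and 52.4, 55.6 and 41.6 CPM in treated mice. The quadriceps held 59.2, 55.6 and 56.6 CPM in WT mice, 46.2, 45.1 and 40.2 CPM in HSA-LR mice and 49.7, 51.6 and 50.2 CPM in treated mice. HSA-LR mice lay below WT mice without overlap in both muscles, and in the quadriceps the treated mice lay between them, overlapping neither group. The decreases were log2 FC -0.38 ± 0.1099 (SE), adjusted P = 0.0608 in the gastrocnemius and log2 FC -0.38 ± 0.0732 (SE), adjusted P = 0.0109 in the quadriceps. In treated against HSA-LR mice, values were 0.14 ± 0.1098 (adjusted P = 0.474) and 0.21 ± 0.0731 (adjusted P = 0.118). The quadriceps call held in every alternative, and the gastrocnemius call was lost without WT mouse 2 or 3 or any HSA-LR mouse (adjusted P 0.00408 to 0.177).

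Wipi1 and Wipi2, which bind the lipid that the kinase makes, had log2 FC between -0.14 and 0.36. Bin 002 of Wipi1 (chromosome 11, 109575132 to 109577056, minus strand), the last coding exon and 3′ UTR of Wipi1-201, was called by edgeR in treated against HSA-LR gastrocnemius alone, and it was chosen after its values were seen. Its share of the gene's counts was 6.09, 5.37 and 4.7% in WT mice, 7.21, 8.32 and 7.61% in HSA-LR mice and 5.14, 5.297 and 3.697% in treated mice. In the quadriceps, shares were 5.47, 5.404 and 5.14% in WT mice, 8.08, 8.503 and 7.79% in HSA-LR mice and 5.303, 5.43 and 5.58% in treated mice. HSA-LR mice were highest in both muscles, overlapping neither other group. The gastrocnemius change relative to the gene was -0.68 (adjusted P = 0.0856), and it was lost when WT mouse 1 or 2, any HSA-LR mouse, or treated mouse 1 or 3 was left out. It was also lost with the 5′ to 3′ ratio as a covariate (adjusted P = 1, and 0.00156 to 1 over the alternatives). By limma the bin was called in both muscles, at 0.57 (adjusted P = 0.0336) and 0.65 (adjusted P = 8.11e-05) in HSA-LR against WT mice and at -0.76 (adjusted P = 0.00156) and -0.62 (adjusted P = 0.000185) in treated against HSA-LR mice.

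Of the conjugation genes, Atg12, the ubiquitin-like protein joined to Atg5, was called. It was measured in the gastrocnemius at 20.3, 16.7 and 16.1 CPM in WT mice, 19.2, 19.5 and 19.9 CPM in HSA-LR mice and 17.5, 18.95 and 17.96 CPM in treated mice. The quadriceps levels were 19.9, 19.2 and 18.99 CPM in WT mice, 22.01, 23.1 and 25.98 CPM in HSA-LR mice and 19.6, 18.5 and 21.7 CPM in treated mice. The 3 HSA-LR quadriceps were above all others in that muscle, and the groups overlapped in the gastrocnemius except HSA-LR against treated mice. Atg12 rose in HSA-LR against WT quadriceps, with log2 FC 0.29 ± 0.0938 (SE), adjusted P = 0.0728, beside 0.13 ± 0.0992 (adjusted P = 0.456) in the gastrocnemius. The call was lost when any WT mouse, HSA-LR mouse 2 or 3, or treated mouse 1 was left out, and when every gene with a count was kept (adjusted P 0.0432 to 0.214). The enzymes Atg3, Atg4b and Atg7 and the partners Atg5 and Atg16l1 had log2 FC between -0.18 and 0.31, with a smallest adjusted P of 0.191.

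In the ATG8 family, the 2 LC3 genes were called and the 3 GABARAP genes were not called. Map1lc3b (LC3B, chromosome 8, 121590361 to 121598760, plus strand), which coats autophagosomes and is the usual marker of them, stood in the gastrocnemius at 148, 149 and 152 CPM in WT mice, 106, 105 and 109 CPM in HSA-LR mice and 127, 137 and 151 CPM in treated mice. Quadriceps mice had 163, 167 and 171 CPM in WT mice, 117, 117 and 133 CPM in HSA-LR mice and 143, 136 and 153 CPM in treated mice. All HSA-LR mice lay below all WT and all treated mice in both muscles, and treated mice overlapped WT mice in the gastrocnemius only. Map1lc3b fell in HSA-LR against WT mice, with log2 FC -0.50 ± 0.0787 (SE), adjusted P = 0.00502 in the gastrocnemius and log2 FC -0.45 ± 0.0816 (SE), adjusted P = 0.00867 in the quadriceps. Both calls held in every alternative. In treated against HSA-LR mice it rose in the gastrocnemius, with log2 FC 0.38 ± 0.0786 (SE), adjusted P = 0.0273, and the quadriceps value was 0.25 ± 0.0815 (adjusted P = 0.103). The treated gastrocnemius call was lost without HSA-LR mouse 1 or 2 and had an adjusted P of 0.0362 without treated mouse 3, the library of low 5′ coverage (0.000271 to 0.124 over the alternatives).

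Map1lc3a (LC3A) was measured in the gastrocnemius at 121, 113 and 132 CPM in WT mice, 89.7, 107 and 91.04 CPM in HSA-LR mice and 122, 124 and 144 CPM in treated mice. The quadriceps had 110.1, 105 and 134 CPM in WT mice, 97.5, 96.6 and 90.4 CPM in HSA-LR mice and 138, 116 and 136 CPM in treated mice. HSA-LR mice were the lowest in both muscles with no overlap, and WT and treated mice overlapped. It fell in HSA-LR gastrocnemius, with log2 FC -0.36 ± 0.103 (SE), adjusted P = 0.0579, and the quadriceps value was -0.29 ± 0.111 (adjusted P = 0.118). It rose in treated against HSA-LR mice in both muscles, with log2 FC 0.45 ± 0.103 (SE), adjusted P = 0.0425 in the gastrocnemius and log2 FC 0.46 ± 0.111 (SE), adjusted P = 0.0442 in the quadriceps. The decrease was lost without WT mouse 1 or 3 or HSA-LR mouse 1 or 3, and with the largest bin in place of the gene sum (adjusted P 0.0227 to 0.193). The gastrocnemius increase was lost without HSA-LR mouse 1 or 3 and with the 5′ to 3′ ratio as covariate (0.00302 to 0.196), and the quadriceps increase without HSA-LR mouse 1 or 2 or treated mouse 1 or 3 (0.00407 to 0.325).

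The GABARAP genes Gabarap, Gabarapl1 and Gabarapl2, which act with LC3 late in closure of the autophagosome, had log2 FC between -0.12 and 0.19 over the 6 comparisons, with a smallest adjusted P of 0.329.

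Map1lc3b also changed in form. Bin 009 (121593546 to 121593650) extends a coding exon of 56 bases by 105 bases, and 2 of the gene's 5 transcripts hold it, Map1lc3b-205 and the retained-intron transcript Map1lc3b-202. The extension is a multiple of 3 and held 0 stop codons in frame. The exon is shown with the extension in capitals, 5′ to 3′ on the plus strand of GRCm38 at chr8:121593490-121593650, because the capitals are the stretch whose use differed.
Map1lc3b exon and extension: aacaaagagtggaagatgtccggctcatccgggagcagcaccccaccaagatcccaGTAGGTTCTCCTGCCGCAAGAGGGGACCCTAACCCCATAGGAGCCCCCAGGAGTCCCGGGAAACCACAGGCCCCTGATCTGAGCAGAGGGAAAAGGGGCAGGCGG
Relative to the exon next to it, the extension held per base 4.72% and 4.83% of the coverage in WT gastrocnemius and quadriceps, 2.04% and 1.63% in HSA-LR mice, and 3.68% and 4.36% in treated mice. The intron after the extension, bin 010, held per base 10.5% and 8.85% of the extension's coverage in WT gastrocnemius and quadriceps. These values were 20.2% and 22.2% in HSA-LR mice and 7.44% and 6.48% in treated mice. The part of each transcript in the extension's counts was not tested.

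As a share of Map1lc3b counts, the extension made up 0.648, 0.699 and 0.7103% in WT mice, 0.355, 0.307 and 0.218% in HSA-LR mice and 0.435, 0.671 and 0.451% in treated mice in the gastrocnemius. For the quadriceps, the shares were 0.6698, 0.747 and 0.651% in WT mice, 0.215, 0.251 and 0.246% in HSA-LR mice and 0.586, 0.636 and 0.667% in treated mice. No HSA-LR mouse reached any WT or treated mouse in either muscle. The bin fell in HSA-LR mice, with relative log2 changes of -1.22 (adjusted P = 0.00054) and -1.53 (adjusted P = 4.83e-05), and rose in treated against HSA-LR quadriceps, at 1.40 (adjusted P = 0.000822). The gastrocnemius value in treated against HSA-LR mice was 0.81 (adjusted P = 0.349). The 3 calls held in every alternative. Bin 010, the retained intron downstream (121593651 to 121595985, 2335 bp), was the only member bin called between treated and WT mice in the gastrocnemius, beside 0.0654% of all bins. Its shares there were 1.64, 1.93 and 1.23% in WT mice, 1.51, 1.27 and 1.11% in HSA-LR mice and 0.941, 0.953 and 0.622% in treated mice, and treated mice were below WT mice, at -0.95 (adjusted P = 0.00466). That call was lost without WT mouse 2 or treated mouse 3 (adjusted P 0.000908 to 0.654). In the quadriceps, bin 010 made up 1.18, 1.87 and 1.07% in WT mice and 0.984, 0.772 and 0.954% in treated mice. HSA-LR quadriceps held 1.32, 0.889 and 1.26%. Treated mice lay below WT mice there too, at -0.59, which was not called (unadjusted P = 0.00708 by edgeR).

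In Map1lc3a, bin 001 (chromosome 2, 155276297 to 155276542, plus strand), the start of the 5′ UTR, was called in the gastrocnemius. Its share of the gene's counts was 1.22, 1.89 and 2.79% in WT mice, 1.11, 1.03 and 0.937% in HSA-LR mice and 2.56, 1.56 and 1.37% in treated mice. Quadriceps shares were 1.36, 0.804 and 2.05% in WT mice, 1.32, 1.22 and 0.7398% in HSA-LR mice and 1.51, 1.14 and 1.51% in treated mice. HSA-LR gastrocnemius lay lowest without overlap, and the quadriceps groups overlapped. The relative log2 changes were -0.96 (adjusted P = 0.00302) in HSA-LR against WT and 0.81 (adjusted P = 0.0579) in treated against HSA-LR mice. The first was lost without WT mouse 3 (adjusted P 0.000172 to 0.531), and the second without any HSA-LR mouse or treated mouse 1 and under limma (0.00727 to 1).

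Among the cargo receptors, Sqstm1 (p62; chromosome 11, 50199366 to 50210827, minus strand) was the member of highest level per kilobase of exon, at 259 CPM per kb in WT gastrocnemius and 241 in WT quadriceps. Its gene sum was not called in any comparison. Levels were 988, 900.0 and 722 CPM in WT mice, 779, 749 and 862 CPM in HSA-LR mice and 858, 1021 and 1002 CPM in treated mice in the gastrocnemius and 869.7, 869 and 687 CPM in WT mice, 843, 750.1 and 846 CPM in HSA-LR mice and 811, 909.7 and 863 CPM in treated mice in the quadriceps. The groups overlapped in both muscles, and HSA-LR against WT values were -0.14 ± 0.132 (adjusted P = 0.572) and 0.01 ± 0.107 (adjusted P = 0.965).

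Bin 001 of Sqstm1 is the distal 3′ UTR (50199366 to 50200151, 786 bp), which Sqstm1-201 alone holds, and Sqstm1-202 ends at 50200152. The last 30 bases before the 2 ends are shown as for Rb1cc1, because the bin lies between them, with AATAAA in capitals, as transcribed from the minus strand at 50200152 to 50200181 and 50199366 to 50199395.
Sqstm1 proximal end: tgtAATAAAatggcatatgcactttaacca
Sqstm1 distal end: gaccacatttctcatataaagaagacatcc
The proximal end held AATAAA, and the distal end held neither AATAAA nor ATTAAA in its last 30 or 50 bases. In both genes the proximal end held the signal and the distal end did not.

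In the gastrocnemius, the share of bin 001 in Sqstm1 counts was 0.277, 0.345 and 0.301% in WT mice, 0.0691, 0.0533 and 0.0666% in HSA-LR mice and 0.206, 0.216 and 0.179% in treated mice. In the quadriceps, the share was 0.304, 0.305 and 0.291% in WT mice, 0.0517, 0.0373 and 0.0534% in HSA-LR mice and 0.209, 0.248 and 0.209% in treated mice. The 3 groups did not overlap in either muscle, with WT mice highest, treated mice next and HSA-LR mice lowest. The lowest share, in HSA-LR quadriceps mouse 2, was 39 of 104687 counts, 0.0373% with a 95% Wilson interval of 0.0273% to 0.0509%. The highest, in WT gastrocnemius mouse 2, was 433 of 125471 counts, 0.345% with a 95% Wilson interval of 0.314% to 0.379%. These intervals cover counting error only, and a pair can count in several bins. They belong to the extremes of 18 libraries and to different muscles, so their lack of overlap is not a test. Group means in the gastrocnemius were 0.308% ± 0.0347 in WT, 0.063% ± 0.00852 in HSA-LR and 0.2002% ± 0.0192 in treated mice (SD, n = 3).

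Sqstm1 bin 001 fell in HSA-LR against WT mice, with a relative log2 change of -2.28 (adjusted P = 4.12e-13) in the gastrocnemius and -2.66 (adjusted P = 3.92e-23) in the quadriceps. It rose in treated against HSA-LR mice, at 1.66 (adjusted P = 5.62e-07) and 2.23 (adjusted P = 1.45e-15). All 4 calls held in every alternative, with log2 changes of -2.36 to -2.18 and -2.76 to -2.51 in HSA-LR against WT mice with each mouse left out. Treated against WT mice gave -0.62 (adjusted P = 1) and -0.43 (adjusted P = 1), which did not pass, although the groups did not overlap. An exact permutation test of the shares, two-sided, gave P = 0.1 in each comparison, the smallest that 3 mice against 3 allow. Per base, the bin held 1.74% and 1.67% of the coverage of the neighbouring bin 003 in WT gastrocnemius and quadriceps, 0.355% and 0.259% in HSA-LR mice, and 1.10% and 1.26% in treated mice.

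**Figure D2:**
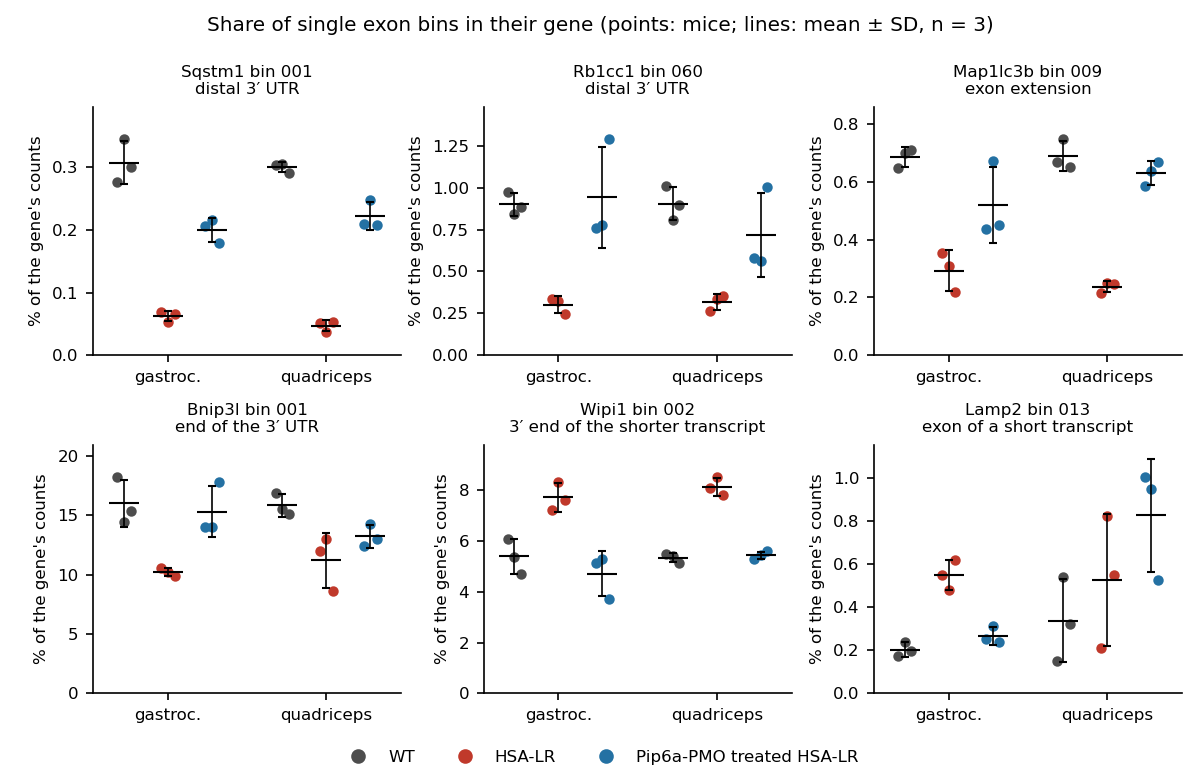
Share of 6 exon bins in the counts of their gene (y axis, percent) by muscle and group, with 1 point per mouse and lines for the mean ± SD (n = 3). HSA-LR mice lie below WT and treated mice without overlap for Sqstm1 bin 001, Rb1cc1 bin 060 and Map1lc3b bin 009 in both muscles, and above them for Wipi1 bin 002. The bins shown were chosen by results of these data, so this lack of overlap is not separate support.

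Nbr1, a receptor related to p62 that binds ubiquitinated cargo, rose in HSA-LR mice of both muscles. It was measured in the gastrocnemius at 145, 143 and 153 CPM in WT mice, 190.3, 189.7 and 211 CPM in HSA-LR mice and 161, 169 and 132 CPM in treated mice. Its quadriceps levels were 135, 159.6 and 148 CPM in WT mice, 189, 189 and 205 CPM in HSA-LR mice and 167, 185 and 151 CPM in treated mice. HSA-LR mice were above WT and treated mice without overlap in both muscles, and WT and treated mice overlapped. Nbr1 rose in HSA-LR against WT mice, with log2 FC 0.41 ± 0.103 (SE), adjusted P = 0.0351 in the gastrocnemius and log2 FC 0.40 ± 0.0971 (SE), adjusted P = 0.0271 in the quadriceps. It fell in treated against HSA-LR gastrocnemius, with log2 FC -0.35 ± 0.103 (SE), adjusted P = 0.0857, and the quadriceps value was -0.21 ± 0.09702 (adjusted P = 0.205). The first call was lost without WT mouse 2 or HSA-LR mouse 3 (adjusted P 0.00507 to 0.136), and the quadriceps rise held with each mouse left out (0.00449 to 0.142 over the alternatives). The decrease was lost without WT mouse 1 or 2, any HSA-LR mouse or treated mouse 1, and with the 2 groups fitted alone, with the largest bin in place of the gene sum, when every gene with a count was kept and with the 5′ to 3′ ratio as covariate (adjusted P 0.0386 to 0.392 over the alternatives).

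Fundc1, a receptor on the outer mitochondrial membrane that serves mitophagy, was lower in HSA-LR mice of both muscles. The gastrocnemius levels were 29.3, 26.7 and 30.2 CPM in WT mice, 22.97, 21.5 and 20.6 CPM in HSA-LR mice and 28.8, 26.3 and 25.2 CPM in treated mice. The quadriceps levels were 28.9, 32.7 and 33.9 CPM in WT mice, 25.7, 25.3 and 26.3 CPM in HSA-LR mice and 30.9, 27.8 and 33.2 CPM in treated mice. HSA-LR mice lay below WT and treated mice without overlap in both muscles. The decreases were log2 FC -0.42 ± 0.0876 (SE), adjusted P = 0.0172 in the gastrocnemius and log2 FC -0.30 ± 0.0932 (SE), adjusted P = 0.0623 in the quadriceps, and the gene rose in treated against HSA-LR gastrocnemius, with log2 FC 0.31 ± 0.0876 (SE), adjusted P = 0.0744. The treated quadriceps value was 0.25 ± 0.0931 (adjusted P = 0.1304). Fundc1 is X-linked, and without WT mouse 3, the mouse without Y-linked RNA, the decreases had an adjusted P of 0.0462 and 0.171. The gastrocnemius decrease held in every alternative (0.000727 to 0.0715). The quadriceps decrease was also lost without WT mouse 2 or HSA-LR mouse 1 or 2 and with the largest bin in place of the gene sum (0.0242 to 0.171). The increase was lost without WT mouse 1 or 2, any HSA-LR mouse or treated mouse 1 or 2, and with the 2 groups fitted alone and when every gene with a count was kept (0.0183 to 0.216).

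Optn (optineurin), a receptor for mitochondria and bacteria, was called in treated quadriceps. Gastrocnemius levels were 136, 113 and 106 CPM in WT mice, 99.98, 100.3 and 127 CPM in HSA-LR mice and 162, 134 and 119.8 CPM in treated mice. Quadriceps levels were 108, 97.1 and 97.04 CPM in WT mice, 87.2, 83.2 and 89.7 CPM in HSA-LR mice and 117, 124 and 99.7 CPM in treated mice. In the quadriceps the HSA-LR mice lay below all WT and treated mice, and in the gastrocnemius all groups overlapped. Optn rose in treated against HSA-LR quadriceps, with log2 FC 0.39 ± 0.0929 (SE), adjusted P = 0.0416, and HSA-LR against WT values were -0.13 ± 0.147 (adjusted P = 0.6496) and -0.21 ± 0.0928 (adjusted P = 0.168). The call was lost without HSA-LR mouse 1 or 2 or treated mouse 1 or 2, and with the 5′ to 3′ ratio as covariate (adjusted P 0.00375 to 0.266).

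Bnip3 and Bnip3l, 2 related mitophagy receptors of the BH3-only family, were not called. With Sqstm1, they had log2 FC between -0.22 and 0.35 and a smallest adjusted P of 0.185. Bin 001 of Bnip3l (chromosome 14, 66985239 to 66987272, minus strand), the end of its 3′ UTR, was called in the gastrocnemius. Its share was 18.2, 14.4 and 15.3% in WT mice, 10.5, 10.2 and 9.86% in HSA-LR mice and 14.04, 14.04 and 17.8% in treated mice. In the quadriceps its share was 16.9, 15.5 and 15.1% in WT mice, 11.95, 13.02 and 8.62% in HSA-LR mice and 12.4, 14.3 and 13.04% in treated mice. The relative log2 change in the gastrocnemius was -0.65 (adjusted P = 0.0867), with HSA-LR mice below both other groups there and below WT mice in the quadriceps, and it was lost when any WT or HSA-LR mouse was left out (adjusted P 4.39e-05 to 0.647). By limma the bin was also called in HSA-LR against WT quadriceps, at -0.60 (adjusted P = 0.00148), and in treated against HSA-LR gastrocnemius, at 0.69 (adjusted P = 0.000441). The treated mouse of low 5′ coverage had the highest share of treated mice, 17.8%.

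Tfeb, a transcriptional regulator of lysosomal genes, was higher in HSA-LR quadriceps. The gastrocnemius held 106, 107 and 106 CPM in WT mice, 133, 126 and 136 CPM in HSA-LR mice and 102, 126 and 148 CPM in treated mice. The quadriceps held 95.9, 107 and 104 CPM in WT mice, 127, 115 and 142 CPM in HSA-LR mice and 111, 107 and 123 CPM in treated mice. HSA-LR mice were above WT mice without overlap in both muscles, and treated mice overlapped both other groups. Tfeb rose in HSA-LR against WT quadriceps, with log2 FC 0.32 ± 0.0991 (SE), adjusted P = 0.0617, beside 0.30 ± 0.121 (adjusted P = 0.1598) in the gastrocnemius. The call was lost without WT mouse 1 or 3, HSA-LR mouse 1 or 3 or treated mouse 1, and with the largest bin in place of the gene sum (adjusted P 0.0348 to 0.192). The related X-linked factor Tfe3 had log2 FC between -0.09 and 0.05.

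Within Tfeb, 2 alternative first exons in the 5′ UTR were called in the quadriceps, on few counts. Bin 009 (chromosome 17, 47769262 to 47769426, plus strand) had counts of 1, 0 and 0 in WT mice, 6, 12 and 21 in HSA-LR mice and 12, 4 and 2 in treated mice in the quadriceps, and 0, 0 and 0 in WT mice, 4, 0 and 2 in HSA-LR mice and 3, 2 and 0 in treated mice in the gastrocnemius. HSA-LR quadriceps held more than all WT quadriceps (adjusted P = 0.000474), a call that held in every alternative in which the bin was tested, and treated quadriceps lay above WT mice and overlapped HSA-LR mice. Bin 004 (47738903 to 47739968) had counts of 2, 2 and 6 in WT mice, 15, 21 and 36 in HSA-LR mice and 4, 2 and 8 in treated mice in the quadriceps. It rose in HSA-LR against WT mice, with a relative log2 change of 2.39 (adjusted P = 0.00965), and fell in treated against HSA-LR mice, at -2.10 (adjusted P = 0.0442). The rise was lost without WT mouse 1 or 2 or HSA-LR mouse 3 (adjusted P 0.00283 to 0.278), and the fall without HSA-LR mouse 3 or treated mouse 1 or 2 and with the 5′ to 3′ ratio as covariate (0.00912 to 0.943).

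Of the lysosomal members, Lamp1, a major glycoprotein of the lysosomal membrane, was lower in HSA-LR quadriceps and higher in treated quadriceps. The gastrocnemius levels were 533, 524 and 552 CPM in WT mice, 493, 494 and 492 CPM in HSA-LR mice and 527, 572 and 609 CPM in treated mice. In the quadriceps, levels were 557, 557 and 573 CPM in WT mice, 472, 452 and 495 CPM in HSA-LR mice and 534, 565 and 619 CPM in treated mice. HSA-LR mice were lowest in both muscles without overlap, and WT and treated mice overlapped. Lamp1 fell in HSA-LR against WT quadriceps, with log2 FC -0.25 ± 0.0794 (SE), adjusted P = 0.07301, and rose in treated against HSA-LR quadriceps, with log2 FC 0.28 ± 0.0794 (SE), adjusted P = 0.0679. The gastrocnemius values were -0.13 ± 0.0826 (adjusted P = 0.364) and 0.22 ± 0.0826 (adjusted P = 0.168). The decrease was lost without any WT mouse or HSA-LR mouse 1 or 2 (adjusted P 0.02201 to 0.217), and the increase without HSA-LR mouse 1 or 2 or any treated mouse (0.0125 to 0.2798). The decrease was also lost with the largest bin in place of the gene sum, when every gene with a count was kept, with upper-quartile scaling and with the 5′ to 3′ ratio as covariate, and the increase with the 2 groups fitted alone, with the largest bin in place of the gene sum, when every gene with a count was kept and with the 5′ to 3′ ratio as covariate.

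TFEB and TFE3 bind the E-box CACGTG, the core of the element shared by many lysosomal genes. It reads the same on both strands, and it was searched from 250 bases before to 50 after the annotated start in RefSeq promoters on GRCm38.p6. It was found in 8.09% of 27025 genes and in 7 of the 25 members with a window (28.0%), namely Atg14, Atg3, Atg5, Atg7, Bnip3, Ctsl and Lamp1. The longer form TCACGTGA, which contains it, was found in 1.12% of genes and in 1 member, Atg3. The 250 bases before the start of Lamp1 (chr8:13158911-13159160, plus strand) are shown because Lamp1 is the called member among the 7 and held 4 copies, in capitals.
Lamp1 upstream: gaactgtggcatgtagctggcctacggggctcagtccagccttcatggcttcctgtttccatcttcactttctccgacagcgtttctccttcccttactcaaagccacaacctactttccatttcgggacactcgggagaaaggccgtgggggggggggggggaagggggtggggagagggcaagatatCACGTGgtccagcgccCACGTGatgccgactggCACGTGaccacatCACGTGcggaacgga
These matches describe the letters and not binding, and the promoters of the other called members with a window held no CACGTG in it.

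Ctsb (cathepsin B), a cysteine protease of the lysosome, fell in HSA-LR gastrocnemius. It was measured there at 274, 280.0 and 351 CPM in WT mice, 243, 243 and 237 CPM in HSA-LR mice and 272, 270.1 and 301 CPM in treated mice. Quadriceps levels for Ctsb were 428, 307 and 368 CPM in WT mice, 323, 391 and 300.4 CPM in HSA-LR mice and 319.6, 317 and 326 CPM in treated mice. HSA-LR gastrocnemius lay below all WT and treated mice, and the quadriceps groups overlapped. The decrease was log2 FC -0.33 ± 0.106 (SE), adjusted P = 0.0821, beside -0.12 ± 0.133 (adjusted P = 0.626) in the quadriceps. It was lost without WT mouse 2 or 3 or any HSA-LR mouse, and when every gene with a count was kept and with upper-quartile scaling (adjusted P 0.0349 to 0.209). Ctsl (cathepsin L), a related protease, had values of -0.42 ± 0.142 (adjusted P = 0.101) and -0.29 ± 0.109 (adjusted P = 0.119) in HSA-LR against WT mice and was not called.

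Lamp2, the partner of Lamp1 whose loss causes a vacuolar myopathy, had log2 FC between -0.08 and 0.09. Its bin 013 (chromosome X, 38452890 to 38455356, minus strand), an exon of the noncoding transcript Lamp2-205, was called in HSA-LR against WT gastrocnemius. Shares were 0.173, 0.241 and 0.199% in WT mice, 0.551, 0.4798 and 0.618% in HSA-LR mice and 0.253, 0.315 and 0.237% in treated mice. Shares in the quadriceps were 0.153, 0.539 and 0.322% in WT mice, 0.211, 0.824 and 0.548% in HSA-LR mice and 1.004, 0.951 and 0.525% in treated mice. HSA-LR gastrocnemius was above both other groups, and the quadriceps groups overlapped. The relative log2 change in the gastrocnemius was 1.42 (adjusted P = 0.00505) and held in every alternative (0.00101 to 0.0971), on 47, 41 and 50 counts in HSA-LR and 15, 23 and 20 in WT mice. In treated against WT quadriceps the value was 1.28 (adjusted P = 0.231) by edgeR, and the bin was called there by limma, at 1.38 (adjusted P = 0.0316), and by edgeR with bins of at least 10 counts in every library, at 1.28 (adjusted P = 0.0581). By edgeR with the replicate number as a block it was called there too, at 1.39 (adjusted P = 0.0302).

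**Figure D3:**
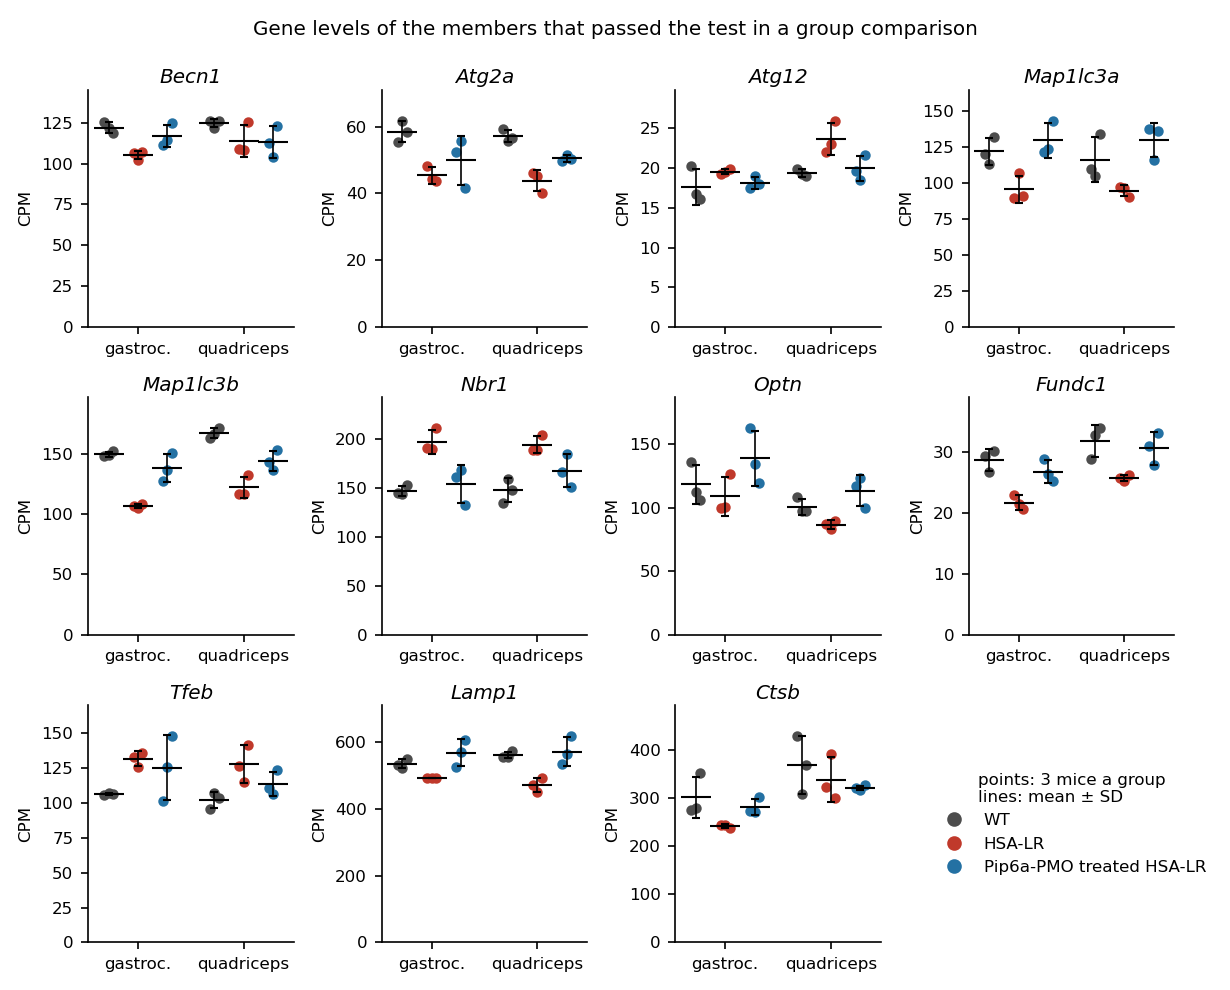
Levels (y axis, CPM) of the 11 members called in a group comparison, by muscle and group, with 1 point per mouse and lines for the mean ± SD (n = 3). HSA-LR mice lie below WT mice without overlap in both muscles for Atg2a, Map1lc3a, Map1lc3b, Fundc1 and Lamp1, and above them for Nbr1 and Tfeb. The members shown were chosen by their calls in these data, so this lack of overlap is not separate support.

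Treated mice were also set against WT mice, to ask what remained after treatment. No member was called in the gastrocnemius, beside 1.04% of all genes, and none in the quadriceps, beside 1.41%. At an unadjusted P under 0.05, 0 and 4 members passed in the 2 muscles, the 4 being Ctsl, Atg2a, Map1lc3b and Wipi1. DESeq2 called 0 members in the gastrocnemius and 1 in the quadriceps, Wipi1. Wipi1 stood at 70.3, 69.99 and 66.03 CPM in WT quadriceps, 75.4, 73.1 and 90.7 CPM in HSA-LR and 83.1, 99.1 and 81.3 CPM in treated quadriceps, and treated mice were above all WT mice (log2 FC 0.36 ± 0.109, adjusted P = 0.227 by edgeR). Log2 FC over the members ran from -0.23 to 0.23 in the gastrocnemius and -0.26 to 0.36 in the quadriceps, with a median SE of 0.103 and 0.099, which sets the differences that could be seen. By bin, none of the 686 tested in the quadriceps was called by edgeR in the main fit, beside 0.0353% of all bins. The smallest adjusted P was 0.231, and 5 bins passed an unadjusted P of 0.05. Lamp2 bin 013 alone was called by limma, by edgeR with bins of at least 10 counts in every library, and by edgeR with the replicate number as a block.

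The 2 muscles were compared within 1 fit of the 18 libraries. No member, and 0% of 16167 genes, differed between the muscles in HSA-LR against WT mice, and again 0% in treated against HSA-LR mice. At an unadjusted P under 0.05, 0 and 1 members passed, and the 1 was Gabarap, at a difference of log2 FC of -0.30 (quadriceps minus gastrocnemius, adjusted P = 0.6305). With the mouse as a block, since the 2 muscles come from the same mice, 0 and 3 members passed at that level, Atg3, Gabarap and Ctsl, with a smallest adjusted P of 0.269. A member called in 1 muscle alone was therefore not shown to respond differently in the other. In WT mice, 0 members were called between quadriceps and gastrocnemius, where 48 genes were (0.297%). At an unadjusted P under 0.05, 4 passed, Ctsb, Rb1cc1, Map1lc3b and Pik3c3, and with the mouse as a block 5, Optn being the other, with a smallest adjusted P of 0.147. DESeq2 called 0 members in each of these 3 comparisons.

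Per kilobase of exon, WT gastrocnemius levels spanned from Sqstm1 (259 CPM per kb), Lamp1 (200.5), Map1lc3a (103) and Bnip3 (95.7) down to Atg12 (2.29), Atg7 (2.07), Atg14 (1.84) and Tfe3 (1.22). A pair that covers several bins counts in each, which can raise genes of short bins on this scale. Exon lengths are from GENCODE M21, and those of Atg12 and Atg14 belong to another version of the gene than the one counted.

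Another 135 genes of the pathway, in 7 lists written from general knowledge, were counted in the same way. These lists too were chosen with earlier results of these data known. In HSA-LR against WT mice, 28 of the 134 tested were called in the gastrocnemius, 9 higher and 19 lower, and 34 of 135 in the quadriceps, 17 higher and 17 lower, which is 20.9% and 25.2% beside 15.5% and 20.3% of all genes. In treated against HSA-LR mice, 16 were called in the gastrocnemius (11 higher, 5 lower) and 23 in the quadriceps (13 higher, 10 lower), or 11.9% and 17.04% beside 10.02% and 13.8% of all genes. Median log2 FC in HSA-LR against WT mice was -0.09 and -0.01. Treated against WT mice gave 1 call in each muscle (0.746% and 0.741%, beside 1.04% and 1.41% of all genes), Atp6v0a1 lower in the gastrocnemius (-0.48 ± 0.0926, adjusted P = 0.0734) and Uvrag higher in the quadriceps (0.49 ± 0.0939, adjusted P = 0.06796). The share called in each list in HSA-LR against WT gastrocnemius and quadriceps is given beside its counts, to be read against the same 15.5% and 20.3%.

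Among 17 other genes of autophagosome formation, 3 rose and 2 fell in HSA-LR gastrocnemius and 4 rose in the quadriceps (29.4% and 23.5% of the list). Uvrag, a partner of Becn1 in endosome and autophagosome maturation, rose from 10.5 ± 0.667 to 22.7 ± 0.953 CPM (SD, n = 3) in the gastrocnemius, a log2 FC of 1.10 ± 0.1098 (adjusted P = 0.000475). In the quadriceps its log2 FC was 1.18 ± 0.0947 (adjusted P = 0.000187), and in treated against HSA-LR mice it fell, at -0.86 ± 0.109 (adjusted P = 0.003904) and -0.69 ± 0.0938 (adjusted P = 0.005304). Atg101, a partner of Atg13, rose in HSA-LR mice of both muscles, at 0.32 ± 0.0963 (adjusted P = 0.0652) and 0.45 ± 0.0968 (adjusted P = 0.0165). Atg4a, a protease that processes ATG8 proteins, rose in HSA-LR gastrocnemius (0.43 ± 0.111, adjusted P = 0.0399) and fell in treated mice (-0.36 ± 0.111, adjusted P = 0.0967), and Atg10, the E2-like enzyme for Atg12, did so in the quadriceps (0.39 ± 0.0911, adjusted P = 0.0225, and -0.41 ± 0.0911, adjusted P = 0.0328). The related protease Atg4d rose in treated mice, at 0.34 ± 0.0824 (adjusted P = 0.0467) and 0.26 ± 0.0719 (adjusted P = 0.0621).

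Of 13 other receptors and adaptors, 2 rose and 1 fell in HSA-LR gastrocnemius, and 1 fell in the quadriceps (23.1% and 7.69% of the list). The 1 in both muscles was Ncoa4, the receptor that delivers ferritin, at -0.46 ± 0.128 (adjusted P = 0.0519) and -0.49 ± 0.104 (adjusted P = 0.0164), and it rose in treated mice, at 0.48 ± 0.128 (adjusted P = 0.0645) and 0.55 ± 0.104 (adjusted P = 0.0195). Wdfy3, a scaffold for aggregates, and Rtn3, a receptor of the endoplasmic reticulum, rose in HSA-LR gastrocnemius, at 0.56 ± 0.142 (adjusted P = 0.03795) and 0.37 ± 0.0783 (adjusted P = 0.0187). Tollip, an ubiquitin-binding adaptor, rose in treated quadriceps (0.27 ± 0.0658, adjusted P = 0.0464).

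Of 13 fusion genes, 2 fell in HSA-LR gastrocnemius, and 1 rose and 2 fell in the quadriceps (15.4% and 23.1% of the list). Vps18, of the tethering complex HOPS, fell in both muscles, at -0.42 ± 0.123 (adjusted P = 0.0603) and -0.38 ± 0.106 (adjusted P = 0.0452). Its partner Vps33a fell in HSA-LR quadriceps and rose in treated quadriceps, at -0.23 ± 0.07797 (adjusted P = 0.0858) and 0.32 ± 0.078 (adjusted P = 0.0464). Of the SNAREs, Snap29 fell in HSA-LR gastrocnemius (-0.30 ± 0.103, adjusted P = 0.0984) and Ykt6 rose in the quadriceps (0.23 ± 0.0719, adjusted P = 0.0621).

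Of 15 subunits of the V-ATPase, the pump that acidifies lysosomes, 3 fell in each muscle of HSA-LR mice and 1 rose in the quadriceps (20% and 26.7% of the list). Atp6v1b2 fell in HSA-LR mice, at -0.59 ± 0.108 (adjusted P = 0.01003) and -0.46 ± 0.0692 (adjusted P = 0.00367), and rose in treated mice, at 0.46 ± 0.108 (adjusted P = 0.0425) and 0.46 ± 0.0692 (adjusted P = 0.00834). Atp6v0a1 fell in both muscles, at -0.49 ± 0.0926 (adjusted P = 0.0116) and -0.48 ± 0.0915 (adjusted P = 0.0106), and Atp6ap1 at -0.30 ± 0.0705 (adjusted P = 0.0286) and -0.26 ± 0.0834 (adjusted P = 0.0742). Atp6v0b rose in treated gastrocnemius (0.30 ± 0.0771, adjusted P = 0.0597).

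Of 38 lysosomal enzymes and their activators, 1 rose and 5 fell in HSA-LR gastrocnemius, and 8 rose and 6 fell in the quadriceps (15.8% and 36.8% of the list). Psap, the precursor of the saposins, fell from 955 ± 48 to 610.2 ± 11.1 CPM (SD, n = 3) in the gastrocnemius, at -0.66 ± 0.0837 (adjusted P = 0.00178), and at -0.62 ± 0.075 (adjusted P = 0.00133) in the quadriceps. It rose in treated mice, at 0.43 ± 0.0835 (adjusted P = 0.0238) and 0.35 ± 0.0748 (adjusted P = 0.0308). Aga, which cleaves sugar from asparagine, fell in HSA-LR gastrocnemius (-0.84 ± 0.119, adjusted P = 0.00293) and rose in treated mice (0.53 ± 0.118, adjusted P = 0.0366), and the peptidase Tpp1 fell in HSA-LR quadriceps (-0.38 ± 0.0701, adjusted P = 0.00898). The proteases Ctsc and Ctsk, which leukocytes and osteoclasts express strongly, rose in HSA-LR mice, Ctsc in the gastrocnemius (1.05 ± 0.158, adjusted P = 0.00407) and Ctsk in the quadriceps (1.03 ± 0.182, adjusted P = 0.00746). In treated mice, Ctsc fell in the gastrocnemius (-0.93 ± 0.158, adjusted P = 0.0145), and Ctsh, another cathepsin, fell in the quadriceps (-0.62 ± 0.126, adjusted P = 0.0252).

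Summed levels of some cell type markers also differed between groups. Of 11 listed macrophage markers, 10 were measured, and their summed level was 55.4 to 79.6 CPM in WT, 102.5 to 135.2 CPM in HSA-LR and 52.4 to 77.8 CPM in treated quadriceps. In HSA-LR quadriceps, 7 of the 10 rose against WT mice, and 8 fell in treated mice. The gastrocnemius sums of HSA-LR mice overlapped those of both other groups, at 71.3 to 98.9 CPM in WT, 85.0 to 100.4 CPM in HSA-LR and 58.7 to 93.6 CPM in treated mice. Slow fibre markers, 8 measured, summed to 189 to 531 CPM in WT, 85.6 to 194.8 CPM in HSA-LR and 107 to 2020.3 CPM in treated quadriceps, and 6 rose in treated against HSA-LR mice. In the gastrocnemius they summed to 2562 to 5238 CPM in WT, 1832 to 3949 CPM in HSA-LR and 2574 to 14380.5 CPM in treated mice. Skeletal muscle markers summed to 186111 to 214462 CPM in WT, 153083 to 179622 CPM in HSA-LR and 193499.7 to 232471 CPM in treated quadriceps, where 4 of 10 fell in HSA-LR and 4 rose in treated mice. In the gastrocnemius, HSA-LR mice (168280.4 to 182579 CPM) lay below treated mice (185829 to 269103 CPM), and 4 of 10 rose and 1 fell in treated mice. In HSA-LR quadriceps, endothelial markers lay at 137 to 175 CPM against 207 to 261 CPM in WT mice (3 of 5 fell), and the 3 fibroblast markers measured of 5 lay at 454 to 486 CPM against 292 to 374 CPM (2 rose). In HSA-LR gastrocnemius, the 7 adipocyte markers lay at 167 to 239 CPM against 287 to 354 CPM in WT mice and the 5 erythroid markers at 507 to 678 CPM against 775 to 3867 CPM, with 0 called in either list. Erythroid markers of treated mice, at 905 to 3152 CPM in the gastrocnemius and 357 to 701 CPM in the quadriceps, lay above those of HSA-LR mice (79.4 to 329 CPM in the quadriceps), also with 0 called. In the other muscle, HSA-LR and WT sums of these lists overlapped. Endothelial markers lay at 203 to 229 CPM in HSA-LR and 181 to 261 CPM in WT gastrocnemius. Fibroblast markers lay at 518 to 679 CPM and 544 to 616 CPM there. Adipocyte markers lay at 127 to 1405 CPM in HSA-LR and 405 to 1409 CPM in WT quadriceps. Erythroid markers lay at 195 to 300 CPM in WT quadriceps. The part of these cells and fibres in the changes of the lysosomal enzymes and of the members was not tested.

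Of 17 other genes of the lysosomal membrane, 1 rose and 4 fell in each muscle of HSA-LR mice (29.4% and 29.4% of the list). Laptm4b, a membrane protein of late endosomes, fell at -0.77 ± 0.116 (adjusted P = 0.00406) and -0.72 ± 0.0952 (adjusted P = 0.00203) and rose in treated mice at 0.62 ± 0.116 (adjusted P = 0.0195) and 0.41 ± 0.0949 (adjusted P = 0.0396). Mcoln1, the calcium channel of the lysosome, fell in both muscles, at -0.25 ± 0.0679 (adjusted P = 0.0478) and -0.28 ± 0.0747 (adjusted P = 0.0365), and rose in treated quadriceps (0.23 ± 0.0747, adjusted P = 0.0922). Mfsd8 fell in the gastrocnemius (-0.37 ± 0.0937, adjusted P = 0.03699), and Npc1, which exports cholesterol, fell in HSA-LR quadriceps (-0.36 ± 0.0983, adjusted P = 0.04002) and rose in treated quadriceps (0.54 ± 0.0985, adjusted P = 0.0178). Cln3 rose in treated gastrocnemius (0.40 ± 0.0998, adjusted P = 0.0542).

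Of the mTORC1 and TFE regulators, 2 rose and 2 fell of 21 in HSA-LR gastrocnemius, and 2 rose and 1 fell of 22 in the quadriceps (19.05% and 13.6% of the list). Rragd, a GTPase that brings mTORC1 and TFEB to the lysosome, rose in HSA-LR mice, at 0.59 ± 0.0909 (adjusted P = 0.00465) and 0.68 ± 0.104 (adjusted P = 0.00381), and fell in treated mice, at -0.30 ± 0.0907 (adjusted P = 0.0926) and -0.32 ± 0.103 (adjusted P = 0.0985). Mitf, a relative of Tfeb, rose in both muscles, at 0.44 ± 0.139 (adjusted P = 0.0822) and 0.40 ± 0.138 (adjusted P = 0.08697). Rheb, the activator of mTORC1, fell in HSA-LR gastrocnemius (-0.28 ± 0.0722, adjusted P = 0.0399) and rose in treated gastrocnemius (0.39 ± 0.0722, adjusted P = 0.0191), and Flcn, which acts on Rragd, fell in HSA-LR quadriceps (-0.43 ± 0.145, adjusted P = 0.0864).

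**Figure D4:**
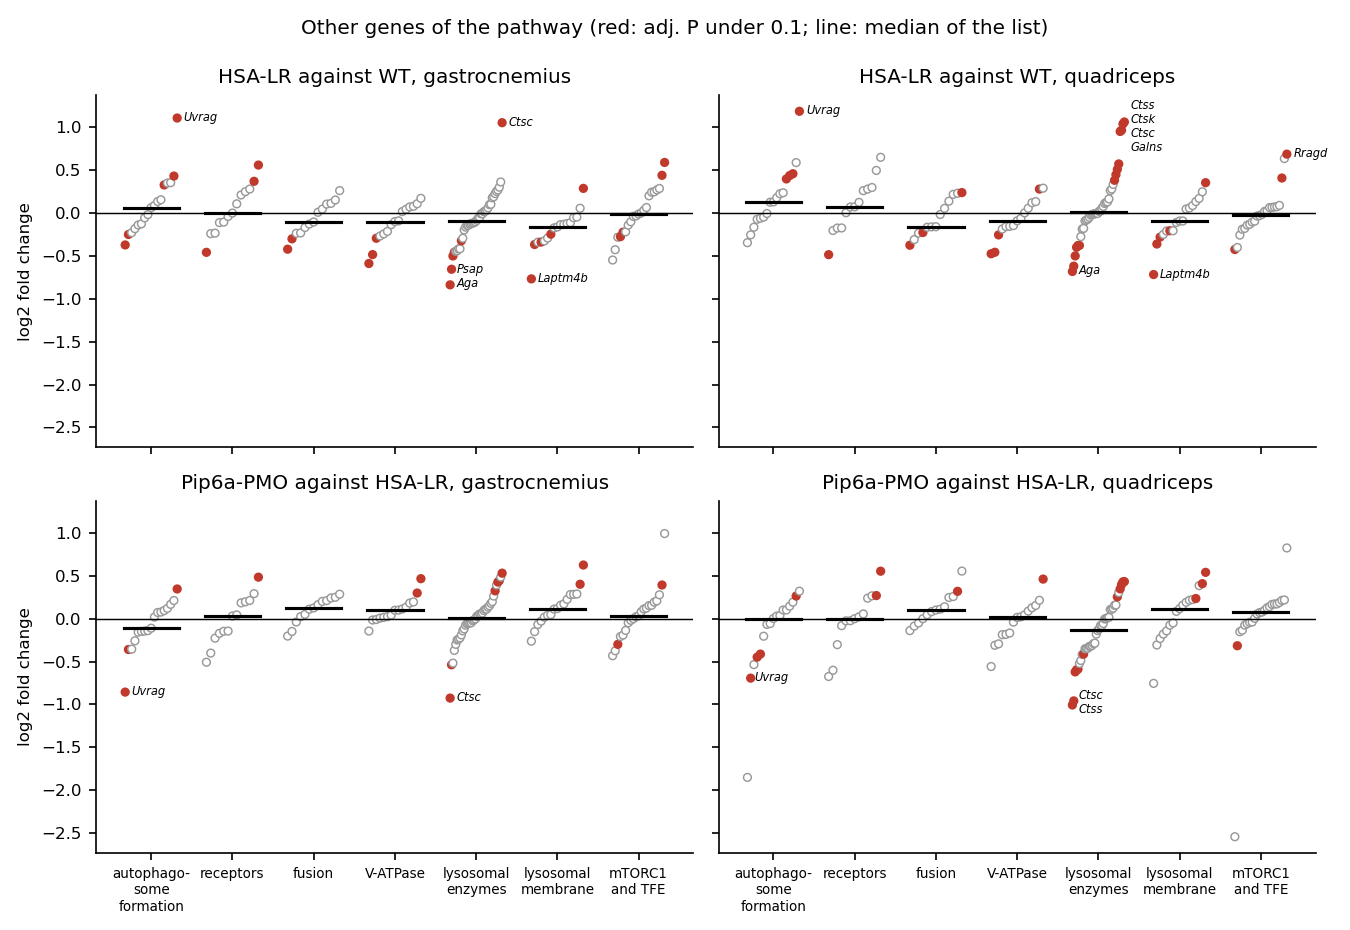
Log2 fold changes (y axis) of the other genes of the pathway in 7 lists (x axis), with 1 point per gene, red where adjusted P was under 0.1, and a line at the list's median, for HSA-LR against WT mice and treated against HSA-LR mice in each muscle. Uvrag, the highest point of its list in HSA-LR mice at 1.10 and 1.18, is the lowest called gene of that list in treated mice at -0.86 and -0.69.

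Counts of called members changed when single mice were left out. In HSA-LR against WT gastrocnemius, 7 calls became 3 without WT mouse 2, WT mouse 3 or HSA-LR mouse 1, 4 without HSA-LR mouse 2 and 2 without HSA-LR mouse 3. In the quadriceps, 7 became 4 without WT mouse 3, HSA-LR mouse 1 or HSA-LR mouse 2. In treated against HSA-LR gastrocnemius, 4 became 2 without WT mouse 1, WT mouse 2 or treated mouse 1, 1 without HSA-LR mouse 2 or 3 and 0 without HSA-LR mouse 1. In the quadriceps, 3 became 0 without HSA-LR mouse 1, HSA-LR mouse 2 or treated mouse 1, and 1 without treated mouse 2. Of the 21 calls on members, 4 held in every alternative (Map1lc3b in both muscles, Fundc1 in the gastrocnemius and Atg2a in the quadriceps, all in HSA-LR against WT mice), and of the 21 calls on bins, 12 did. The 12 include Tfeb bin 009, which was not tested with the filter of at least 10 counts in every library. No called value changed sign.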

How the data were processed

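The authors made the counts, per the paper's methods and the submitters' processing notes, from poly(A) RNA in stranded libraries (TruSeq Stranded mRNA), with CASAVA, HISAT alignment to GRCm38 and featureCounts 1.5.0, and deposited raw counts on exon bins of 46725 genes (391858 bins). Entries that name no gene held 2.82% to 4.14% of each library's total and were left out. Here, bins were summed to genes, so a read pair over several bins counts in each.

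Genes were tested with edgeR 4.0.16 (R 4.3.3) in 1 fit of 9 libraries per muscle: filterByExpr (minimum count 10, minimum total 15), TMM factors, glmQLFit, glmQLFTest and Benjamini-Hochberg adjustment, with calls at an adjusted P under 0.1. A fit of 18 libraries gave the differences between muscles. Bins were tested against their gene with diffSpliceDGE. Printed levels are CPM with TMM factors over 18 libraries. The fits were tested on simulated data. DESeq2 1.42.0, limma 3.58.1, other filters, leaving out each mouse, a replicate block and, chosen after seeing the data, the 5′ to 3′ coverage ratio as a covariate were tried as alternatives. Tables and figures were made with Python 3.11.15, pandas 2.3.3 and matplotlib 3.10.9. Sequences and annotation are from GENCODE M21 and RefSeq, and 28 of the 33 genes matched GENCODE M21 by identifier and version, the other 5 by stable identifier.

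The members, the lists and Sqstm1 bin 001 were chosen with earlier results of these data known. Values per mouse are printed for members called in any of 6 group comparisons, and for the 2 members of smallest P in a role group with none. From each list, at most 3 genes of smallest P among those called per comparison are named, together with the calls in treated against WT mice. A gene that this rule would name is not reported here. Of the bins, Sqstm1 bin 001, the 10 of smallest P called in HSA-LR against WT mice and those called in treated against WT mice are named. Wipi1 bin 002 was added after its values were seen. Replicate numbers across groups did not pair the samples (median correlation of deviations -0.06 in the gastrocnemius and 0.06 in the quadriceps). The 2 muscles of a mouse did (median 0.21 over 9 pairs, against -0.09 over 18 pairs of different mice), and no member was called between WT muscles with the mouse as a block either. The samples of a group are separate mice.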

Additional observations from a re-analysis of the deposited data

How the results depend on the processing

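No value that was called changed sign under any alternative. Of the 42 calls on single members and bins, 17 were kept with each mouse left out, 22 in every other alternative and 16 in all of them. Only alternatives in which the bin was tested were counted. For members, an adjusted P under 0.05 gave 3 calls in HSA-LR against WT gastrocnemius and 3 in the quadriceps (7 each at 0.1), and 2 in treated against HSA-LR gastrocnemius (4 at 0.1). In that last comparison, fitting the 2 groups only gave 2 and keeping genes with at least 1 count in any library gave 2. In the quadriceps, the largest bin in place of the gene sum gave 4 in HSA-LR against WT mice, and in treated against HSA-LR mice (3 calls) DESeq2 gave 6 and the 5′ to 3′ ratio as covariate 1. DESeq2 gave 1 in treated against WT quadriceps, where edgeR gave 0.

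With each mouse left out, the members called ranged from 2 to 9 and from 4 to 9 in HSA-LR against WT gastrocnemius and quadriceps, and from 0 to 5 and 0 to 4 in treated against HSA-LR mice. Bins called ranged from 5 to 8 and 4 to 5 in HSA-LR against WT mice, from 2 to 5 and 2 to 4 in treated against HSA-LR mice, and from 0 to 2 and 0 to 1 in treated against WT mice. These fits have fewer samples. Bin counts in treated against HSA-LR gastrocnemius fell to 2 without each HSA-LR mouse in turn or treated mouse 1 (4 in all). In the quadriceps they fell to 2 without HSA-LR mouse 3 or treated mouse 1 or 2. In treated against WT gastrocnemius the 1 call became 0 without WT mouse 2 or treated mouse 3 and 2 without treated mouse 2, and in the quadriceps 0 became 1 without WT mouse 2 or treated mouse 3.

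For bins, limma gave 9 calls in treated against HSA-LR gastrocnemius (4 by edgeR), 9 in HSA-LR against WT quadriceps (5) and 1 in treated against WT quadriceps (0). A minimum of 10 counts in every library gave 3 in HSA-LR against WT quadriceps and 1 in treated against WT quadriceps. At an adjusted P under 0.05, treated against HSA-LR gastrocnemius gave 2.

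Replicate numbers are shared across groups in the labels but did not pair the samples. With the replicate block, members called were 4 in HSA-LR against WT gastrocnemius, 2 in treated against HSA-LR gastrocnemius, 7 in HSA-LR against WT quadriceps and 4 in treated against HSA-LR quadriceps. The replicate block together with the 5′ to 3′ ratio gave 1, 3 and 0 in the last 3 of these. Bins called with the replicate block were 6, 3 and 1 in the gastrocnemius and 5, 4 and 1 in the quadriceps, in the order HSA-LR against WT, treated against HSA-LR and treated against WT mice. With the replicate block alone, the gastrocnemius calls on Becn1 (adjusted P = 0.158 by edgeR), Ctsb (0.114) and Map1lc3a (0.101) in HSA-LR against WT mice, on Fundc1 (0.114) and Nbr1 (0.165) in treated against HSA-LR mice, and on Bnip3l bin 001 (0.140) and Map1lc3a bin 001 (0.174) were lost. With the ratio added, those of Becn1, Ctsb, Fundc1 and Nbr1 were again lost, as were the quadriceps calls on Atg12 (0.214), Lamp1 (0.217), Nbr1 (0.142) and Tfeb (0.192) in HSA-LR against WT mice, on Lamp1 (0.280), Map1lc3a (0.325) and Optn (0.266) in treated against HSA-LR mice, and the gastrocnemius calls on Map1lc3a (0.196) and Map1lc3b (0.124) in treated against HSA-LR mice. The causes of these changes were not tested.

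With 3 mice a group and a median SE of about 0.10 on the log2 scale, differences of about that size were not detectable, and larger ones could go uncalled. The smallest member change called was that of Becn1, at log2 FC -0.22 in HSA-LR against WT gastrocnemius. Wipi1, at 0.36 in treated against WT quadriceps, was not called by edgeR. Bins of few counts, such as those of Tfeb and Lamp2, limit what their shares show.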
